A study of Monodelphis domestica with 6 samples.

Results

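The genes described here encode RNA-binding proteins that choose splice sites: the heterogeneous nuclear ribonucleoproteins (hnRNPs), the serine and arginine rich splicing factors (SRSF), and the PTBP, MBNL, RBFOX, CELF, NOVA, ESRP and QKI proteins. They were chosen by symbol alone, and 45 of the 35665 genes in the *Monodelphis domestica* (gray short-tailed opossum) RNASeq data matched. These were 15 hnRNP, 10 SRSF, 6 CELF, 3 MBNL, 3 PTBP, 3 RBFOX, 2 ESRP and 2 NOVA genes and QKI. The study compared neonatal skin fibroblasts (neoSF) with the induced pluripotent stem cells reprogrammed from them (monoiPSC). There were 2 neoSF libraries, 1 from each of the fully inbred strains FD2M1 and LSD1, and 4 monoiPSC libraries, made from 1 line per strain at passage 15 and passage 25. All cells were wild type and derived from 10-day-old female pups. The neoSFs were untreated primary cultures, whereas the monoiPSCs had been nucleofected with episomal plasmids carrying the human OCT4, SOX2, NANOG, KLF4, LIN28 and cMYC genes. The plasmids pCE-mp53DD and pCXB-EBNA1 were part of the same nucleofection.

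Most genes of animals are transcribed with introns, and the spliceosome removes them at sites that the RNA-binding proteins around them help or hinder. SR proteins generally bind exons and favor their inclusion, while many hnRNPs oppose it, and the balance of the antagonists sets which exons an mRNA keeps. The MBNL1, MBNL2 and RBFOX proteins are known for splicing programs of differentiated tissues such as muscle. The NOVA, PTBP2 and several CELF and RBFOX proteins are known for those of neurons, and the ESRP proteins for those of epithelia.

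A normalized read count (NRC) is the authors' count of a gene after DESeq normalization across the 6 libraries. It is not divided by gene length, so levels were compared between libraries and never between genes. For each gene, values are given first for the FD2M1 and the LSD1 neoSFs and then for the monoiPSCs of FD2M1 at passage 15, FD2M1 at passage 25, LSD1 at passage 15 and LSD1 at passage 25, in this order. The counts sum all transcripts of a gene and hold no information on splice isoforms.

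Total counts ranged from 14278794 to 16982978 in neoSFs and from 28684754 to 35564261 in monoiPSCs, so 3 counts correspond to an NRC of 5.85 and 4.75 in the FD2M1 and LSD1 neoSFs and of 1.55 to 1.88 in monoiPSCs. The platforms differed: neoSFs were sequenced in-house with single reads of 50 bp, whereas a commercial service sequenced the monoiPSCs with read pairs of 150 bp, so platform and cell type cannot be told apart. The labelled cell types showed their markers. The summed NRC of 6 pluripotency markers was 186 and 125 in neoSFs and 9145 to 13017 in monoiPSCs, with each of the 6 above both neoSFs in every monoiPSC library. That of 11 fibroblast markers was 2127560 and 2641220 in neoSFs and 7609.6 to 11802 in monoiPSCs, with all 11 below both neoSFs. Both passages of a line share that line, so p-values measure the spread between these libraries rather than between independently reprogrammed lines.

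Most called changes among the regulators were increases in monoiPSCs, which lay in the hnRNP, CELF and NOVA families together with PTBP2, RBFOX1 and SRSF5, while the MBNL genes and RBFOX2 were lower. Of the 45 genes, 42 reached an NRC of 20 in both neoSFs or in all 4 monoiPSC libraries and were tested, while CELF5, ESRP1 and ESRP2 were not. Differential expression (DE) required a 2-fold change and an adjusted p (Benjamini-Hochberg, over all 13072 genes tested) no higher than 0.05 in the quasi-likelihood test of edgeR. On this rule 20 of the 42 regulators (47.6%) were higher in monoiPSCs, against 24.3% of all genes tested, and 4 (9.52%) were lower, against 21.6%. These shares are a description of the chosen genes and carry no test. CELF4, CELF6, NOVA2 and RBFOX1 passed the NRC filter only through the monoiPSC libraries, so the filter itself favored a higher call for them. The remaining 18 were not DE, and 9 of them passed the p threshold at a change under 2-fold. The share of all genes tested that did so is not given, so this count has no background beside it. The median log2 fold change of monoiPSCs over neoSFs was 0.95 over the 42 regulators and 0.080 over all genes tested. In bulk RNA, more cells expressing a gene and more RNA of it per cell cannot be told apart.

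Of the hnRNP genes 11 of 15 were higher and the other 4 were not called, with all 15 log2 fold changes above 0. In the smaller families 4 of 5 tested CELF genes and both NOVA genes were higher, and all 3 MBNL genes were lower. Among the higher ones, CELF4, CELF6 and NOVA2 passed the NRC filter only through the monoiPSC libraries. The SRSF family had 1 DE gene of 10, the PTBP family 1 of 3, and the RBFOX family 1 in each direction with 1 gene not called. Every monoiPSC library stood above both neoSFs for 26 of the 42 regulators (36.1% of all genes tested) and below both for 4 (37.1% of all genes tested), and the groups overlapped for 12. All 20 genes called higher were among the 26.

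**Figure D1:**
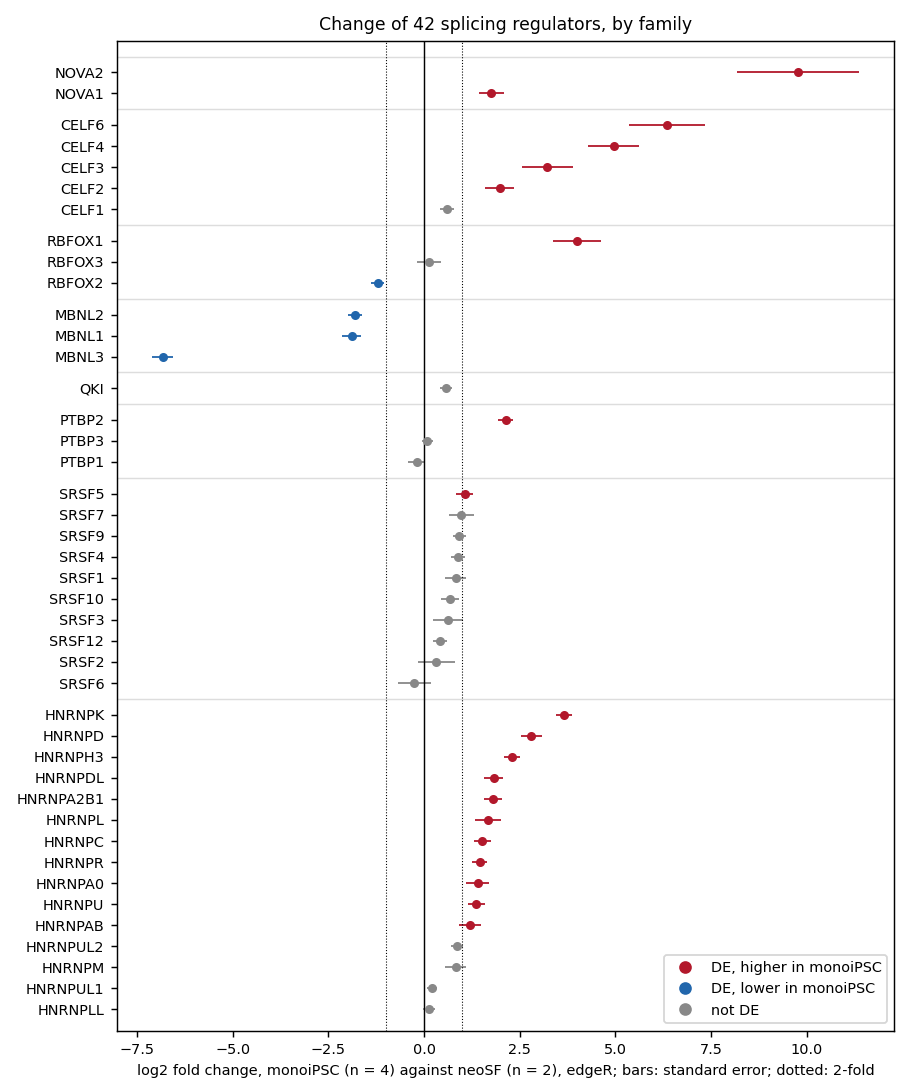
Log2 fold change of monoiPSCs (n = 4) over neoSFs (n = 2) for the 42 regulators tested, on the x axis, grouped by family on the y axis; points are edgeR estimates, bars their standard error, colors the call and dotted lines a 2-fold change. The hnRNP genes lie at or above 0, the 3 MBNL genes below -1, and the values of NOVA2, CELF6 and CELF4 rest on 0 to 3 summed neoSF counts, so the size of their change depends on the prior count of the fit.

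Among the hnRNPs, proteins that coat nascent RNA and act in splicing, export and mRNA stability, the largest change was that of HNRNPK (gene 100021558, chromosome 6 of MonDom5), a KH-domain protein that binds C-rich sequences. Its NRC was 2499.6 and 2275 in the neoSFs and 31519.9, 29237, 24222 and 27099 in the monoiPSCs. The means were 2387 ± 159 (SD, n = 2) in neoSFs and 28019 ± 3109 (SD, n = 4) across monoiPSCs, a 12.5-fold difference with a log2 fold change of 3.65 (SE 0.21, edgeR adjusted p = 2.12e-05). No other hnRNP gene changed as much, and the 4 monoiPSC libraries lay within 1.30-fold of each other. HNRNPD (gene 100010678, chromosome 5), known as AUF1 for its binding to AU-rich elements of unstable mRNAs, had NRCs of 2793 and 1840.0 in the neoSFs and 17384, 17657, 12816 and 12773 in the monoiPSCs, a log2 fold change of 2.80 (SE 0.28, edgeR adjusted p = 0.000158). Its paralog HNRNPDL (gene 100010273, chromosome 5) had 5553 and 3508 in the neoSFs and 16053, 16853, 14674 and 12474 in the monoiPSCs, a log2 fold change of 1.82 (SE 0.25, edgeR adjusted p = 0.000626). Both paralogs were thus higher in every monoiPSC library, HNRNPD by 6.99-fold and HNRNPDL by 3.54-fold.

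Of the A and B type hnRNPs, abundant proteins that often silence exons, HNRNPA2B1 and HNRNPA0 rose as well. HNRNPA2B1 (gene 100013908, chromosome 8) had NRCs of 24850.4 and 17935 in the neoSFs and 76216, 75919.6, 57993 and 68837 in the monoiPSCs, a log2 fold change of 1.80 (SE 0.23, edgeR adjusted p = 0.000518). HNRNPA0 (gene 100013568, chromosome 1) had 8062 and 5441 in the neoSFs and 22449, 18089.8, 12571 and 13729 in the monoiPSCs, a log2 fold change of 1.40 (SE 0.30, edgeR adjusted p = 0.00532). For both genes the lowest monoiPSC library was LSD1 at passage 15, and it still stood above both neoSFs. HNRNPAB (gene 100032003, chromosome 1) had 8660.3 and 7297 in the neoSFs and 23792, 18707, 13496 and 12756 in the monoiPSCs, a log2 fold change of 1.20 (SE 0.30, edgeR adjusted p = 0.00941). Without the LSD1 neoSFs its log2 fold change was 1.09 with an adjusted p of 0.0582, in a fit with 1 neoSF library that takes its spread from the monoiPSCs. HNRNPA1 is carried in the files under a LOC number and was outside the symbol rule, and it was listed at 0 in all 6 libraries. HNRNPA3 was not found in the data. Many hnRNP genes have near-identical pseudogenes, and how reads of such copies were divided was not tested. The levels of these genes, and their changes between groups of unlike read length, are uncertain to that extent.

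HNRNPC (gene 100023296, chromosome 1), which binds uridine tracts, had NRCs of 3555 and 2745 in the neoSFs and 9731, 9444, 6727 and 7799 in the monoiPSCs, a log2 fold change of 1.51 (SE 0.22, edgeR adjusted p = 0.000898). HNRNPU (gene 100027004, chromosome 2), a nuclear scaffold protein, had 13861 and 11498 in the neoSFs and 36058, 31976, 30083 and 23865 in the monoiPSCs, a log2 fold change of 1.36 (SE 0.22, edgeR adjusted p = 0.0015). HNRNPR (gene 100022781, chromosome 4) had 3399 and 2726 in the neoSFs and 9110.2, 8481, 7196 and 6611 in the monoiPSCs, a log2 fold change of 1.45 (SE 0.20, edgeR adjusted p = 0.000725). In each of these genes the FD2M1 monoiPSCs at passage 15 gave the highest value and both neoSFs the lowest. HNRNPH3 (gene 100015075, chromosome 1), a relative of the G-tract binding hnRNP H, had 1405 and 969.5 in the neoSFs and 5888, 5885, 4604 and 5498 in the monoiPSCs, a log2 fold change of 2.30 (SE 0.22, edgeR adjusted p = 0.000133). HNRNPL (gene 100011214, chromosome 4), which binds CA repeats, had 3909 and 4392 in the neoSFs and 13100.2, 14738, 6661 and 14942 in the monoiPSCs, a log2 fold change of 1.67 (SE 0.35, edgeR adjusted p = 0.00443). The monoiPSC libraries spread more for HNRNPL than for any other hnRNP gene, by 2.24-fold, with LSD1 at passage 15 the lowest.

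The 4 hnRNP genes that were not DE were HNRNPUL2, HNRNPM, HNRNPUL1 and HNRNPLL. HNRNPUL2 (gene 100012428, chromosome 5) had NRCs of 1521 and 1492 in the neoSFs and 2335, 2589, 2364 and 3014 in the monoiPSCs, so the groups were apart, with a log2 fold change of 0.87 (SE 0.16, edgeR adjusted p = 0.00238), under 2-fold. HNRNPM had a log2 fold change of 0.82 (SE 0.28, edgeR adjusted p = 0.0358) and HNRNPUL1 one of 0.20 (SE 0.13, edgeR adjusted p = 0.224). HNRNPLL (gene 100011229, chromosome 1), the paralog of HNRNPL known from lymphocytes, had 980.0 and 1210.2 in the neoSFs and 1202, 1181, 1104 and 1007 in the monoiPSCs, and the groups overlapped with a log2 fold change of 0.13 (SE 0.16, edgeR adjusted p = 0.503). The call therefore separated HNRNPL from HNRNPLL, a difference given further on as a ratio within each library. The members' counts together made up 0.693% and 0.567% of all counts in the FD2M1 and LSD1 neoSFs and 2.24%, 2.06%, 1.78% and 1.64% in the monoiPSCs. Without HNRNPK these shares were 0.684% and 0.558% against 1.49% to 2.06%, so the order did not depend on that gene. The mean share was 3.06-fold higher in monoiPSCs, whereas the mean summed NRC of the members was 1.99-fold higher. The 11 fibroblast markers took 7.64% and 9.82% of all counts in the neoSFs and at most 0.0660% in a monoiPSC library, and their part in these shares was not tested.

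**Figure D2:**
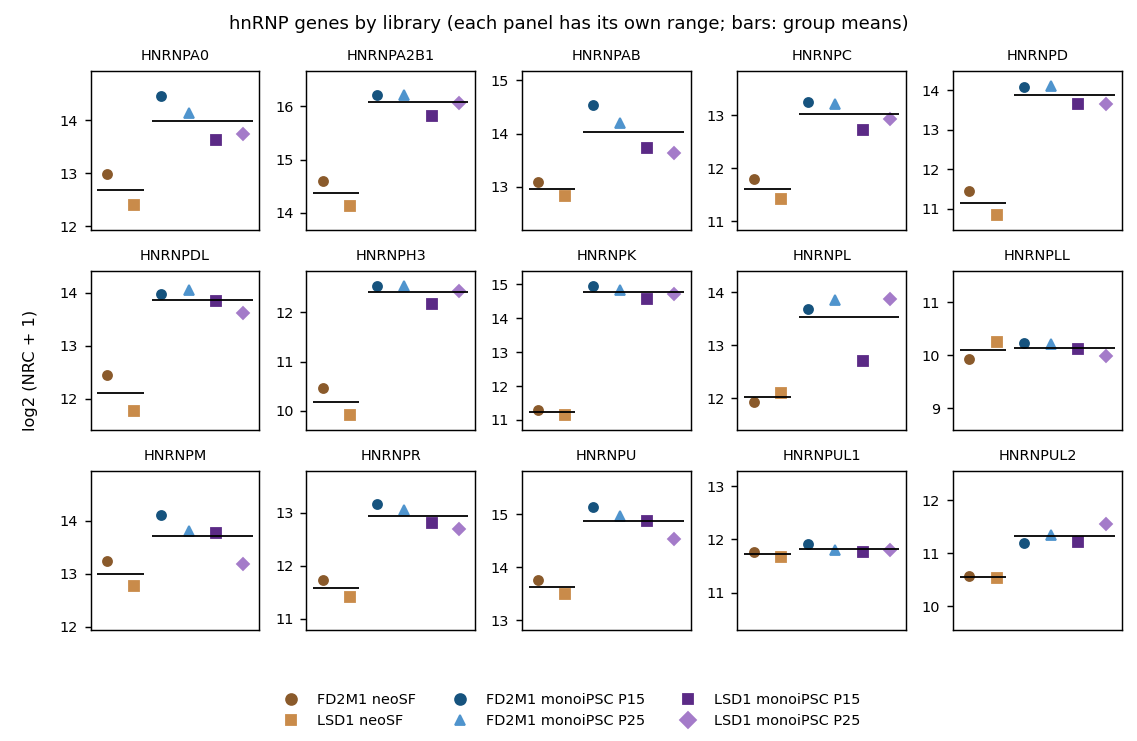
NRC of the 15 hnRNP genes on a log2(NRC + 1) axis, 1 panel per gene with its own range and 1 point per library; horizontal bars are the means of the 2 neoSFs and the 4 monoiPSC libraries. HNRNPK ranges from 2275 to 2499.6 in neoSFs and from 24222 to 31519.9 in monoiPSCs, while the groups overlap for HNRNPLL, HNRNPUL1 and HNRNPM.

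The SR protein genes moved less. SRSF5 (gene 100023766, chromosome 1) was the single DE gene of the family, with NRCs of 3319 and 3487 in the neoSFs and 7354, 8181, 4898 and 6185 in the monoiPSCs and a log2 fold change of 1.06 (SE 0.23, edgeR adjusted p = 0.00537). It lay close to the 2-fold threshold, and without the FD2M1 monoiPSCs at passage 25 its log2 fold change was 0.95 (adjusted p = 0.0133) and with limma on the deposited log2 values 0.94, both under 2-fold. SRSF7 (gene 100010689, chromosome 1), an SR protein that shuttles between nucleus and cytoplasm, came next with 2653 and 1348 in the neoSFs and 4664, 3801, 3588 and 2612 in the monoiPSCs. Its log2 fold change was 0.97 (SE 0.33, edgeR adjusted p = 0.0337), under 2-fold, and with the strain as a block it was 1.02 (adjusted p = 0.00687), past both thresholds. SRSF1, SRSF4, SRSF9 and SRSF10 also passed the p threshold, with log2 fold changes of 0.67 to 0.92. The median over the 10 SRSF genes was 0.75, against 1.45 over the hnRNP genes and 0.080 over all genes tested.

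At the other end stood SRSF6 (gene 100028254, chromosome 1), with 4463 and 2552 in the neoSFs and 4034, 2685, 3065 and 1223 in the monoiPSCs and a log2 fold change of -0.25 (SE 0.44, edgeR adjusted p = 0.635). The groups overlapped for 6 of the 10 SRSF genes, beside 26.8% of all genes tested. SRSF2 (gene 100027106, chromosome 2), an SR protein that stays in the nucleus and is here named after its values were seen, had the widest spread of the family, with 8004 and 3711 in the neoSFs and 10379, 6433, 7527 and 3069 in the monoiPSCs. Its lowest values were those of the LSD1 monoiPSCs at passage 25 and of the LSD1 neoSFs, and the log2 fold change between the groups was 0.32 (SE 0.49, edgeR adjusted p = 0.583). SRSF11, carried under a LOC number and outside the symbol rule, had NRCs of 1041 and 1198 in neoSFs and 1089, 1459, 1596 and 1108 in monoiPSCs, so its groups overlapped too.

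**Figure D3:**
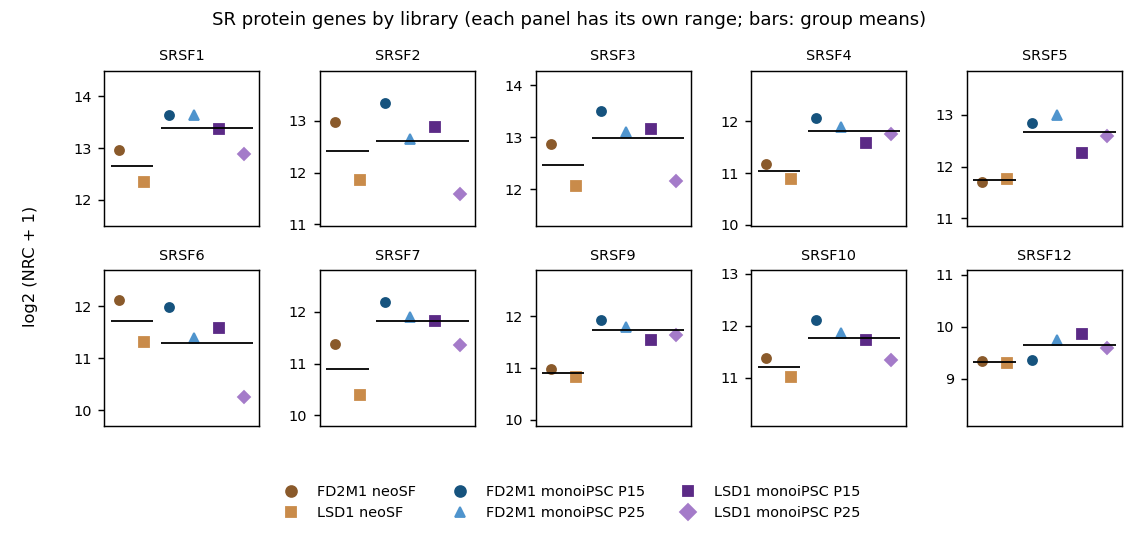
NRC of the 10 SRSF genes on a log2(NRC + 1) axis, 1 panel per gene with its own range, 1 point per library and bars at the group means. Every monoiPSC library lies above both neoSFs for SRSF4, SRSF5, SRSF9 and SRSF12, and LSD1 at passage 25 is the lowest monoiPSC library for 6 of the 10 genes.

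Of the polypyrimidine tract binding proteins, which repress exons flanked by pyrimidine-rich sequence, PTBP2, the member that replaces PTBP1 in developing neurons, rose. PTBP2 (gene 100032919, chromosome 2) had NRCs of 478 and 443 in the neoSFs and 1886, 1665, 2249 and 1744 in the monoiPSCs, a 4.37-fold difference with a log2 fold change of 2.13 (SE 0.19, edgeR adjusted p = 9.46e-05). PTBP1 (gene 100024274, chromosome 3), the member of most cell types, had 22528 and 18834 in the neoSFs and 20388, 18461, 15590.3 and 13120.2 in the monoiPSCs, a log2 fold change of -0.20 (SE 0.22, edgeR adjusted p = 0.449). PTBP3 (gene 100025039, chromosome 6) had 7299 and 7693 in the neoSFs and 7209, 7971, 7150.3 and 7457 in the monoiPSCs, a log2 fold change of 0.08 (SE 0.14, edgeR adjusted p = 0.619). The groups overlapped for PTBP1 and PTBP3, and the 4 monoiPSC libraries lay within 1.11-fold of each other for PTBP3. QKI (gene 100028136, chromosome 2), a STAR-family protein of alternative splicing and circular RNA formation, had 8542 and 8276 in the neoSFs and 11437, 11233, 13377 and 11117 in the monoiPSCs. Every monoiPSC library stood above both neoSFs, and the log2 fold change of 0.58 (SE 0.16, edgeR adjusted p = 0.014) was under 2-fold.

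The muscleblind-like genes, which encode regulators of alternative splicing, fell in monoiPSCs. MBNL3 (gene 100013762, chromosome X) had NRCs of 7588 and 6067 in the neoSFs and 36.2, 58.4, 58.5 and 70.4 in the monoiPSCs, a 114-fold fall with a log2 fold change of -6.83 (SE 0.26, edgeR adjusted p = 8.35e-06). This was the largest decrease among the 42 regulators, and the lowest neoSF value was far above the highest monoiPSC value. MBNL1 (gene 100012831, chromosome 7) had 1452 and 1026 in the neoSFs and 414, 250.2, 312 and 275 in the monoiPSCs, a log2 fold change of -1.89 (SE 0.25, edgeR adjusted p = 0.000527). MBNL2 (gene 100026698, chromosome 7) had 3614 and 3215 in the neoSFs and 954, 1115, 722 and 896 in the monoiPSCs, a log2 fold change of -1.80 (SE 0.18, edgeR adjusted p = 0.000174). All 3 genes were called lower in each of the 13 alternative analyses, and their summed NRC was 12654 and 10309 in neoSFs and 1092 to 1423 in monoiPSCs.

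The RBFOX genes, whose proteins bind the same short UGCAUG element next to regulated exons, went apart. RBFOX2 (gene 100024717, chromosome 8), the broadly expressed member, had NRCs of 3091 and 3074 in the neoSFs and 1487, 1313, 993 and 1194 in the monoiPSCs, a log2 fold change of -1.21 (SE 0.18, edgeR adjusted p = 0.000842). RBFOX1 (gene 100018811, chromosome 6), a member of brain and muscle, had 30.9 and 15.8 in the neoSFs and 283, 237, 238 and 631 in the monoiPSCs, a log2 fold change of 3.99 (SE 0.63, edgeR adjusted p = 0.00125). RBFOX2 was thus lower in each monoiPSC library and RBFOX1 higher, with the LSD1 monoiPSCs at passage 25 the highest for RBFOX1. Without that library the log2 fold change of RBFOX1 was 3.52. RBFOX3 (gene 100026502, chromosome 2), known as the neuronal marker NeuN, had 205 and 177 in the neoSFs and 282, 176, 159 and 166 in the monoiPSCs, and the groups overlapped with a log2 fold change of 0.13 (SE 0.32, edgeR adjusted p = 0.73).

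**Figure D4:**
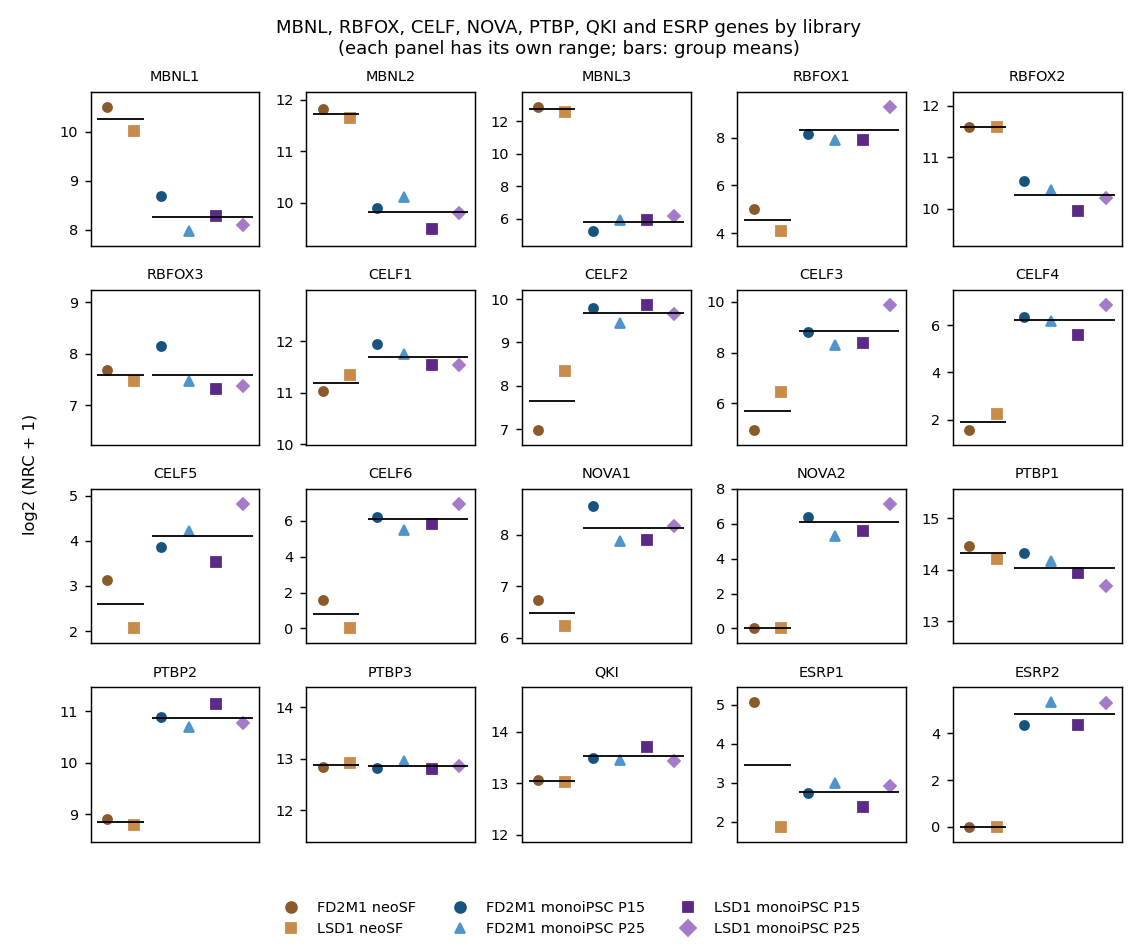
NRC of the MBNL, RBFOX, CELF, NOVA, PTBP, QKI and ESRP genes on a log2(NRC + 1) axis, 1 panel per gene with its own range, 1 point per library and bars at the group means. The 3 MBNL genes and RBFOX2 lie lower in every monoiPSC library, and PTBP2 rises from 443 and 478 to between 1665 and 2249. LSD1 at passage 25 gives the highest value of CELF3, CELF4, CELF5, CELF6, NOVA2 and RBFOX1, but not of NOVA1, RBFOX3 or PTBP2.

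Of the CELF genes, CELF1 and CELF2 encode broadly expressed proteins and the others are best known from the nervous system. CELF2 (gene 100013121, chromosome 8) had NRCs of 126 and 322 in the neoSFs and 885, 693, 929 and 803 in the monoiPSCs, a log2 fold change of 1.97 (SE 0.38, edgeR adjusted p = 0.00309). CELF3 (gene 100015946, chromosome 2) had 29.9 and 85.9 in the neoSFs and 453, 318, 332 and 934 in the monoiPSCs, a log2 fold change of 3.22 (SE 0.66, edgeR adjusted p = 0.00431). Both stood higher in every monoiPSC library, and the LSD1 neoSFs lay above the FD2M1 neoSFs for both. Without the LSD1 neoSFs the log2 fold changes were 2.83 for CELF2 and 4.22 for CELF3. CELF4 (gene 100012928, chromosome 3) had 1.95 and 3.72 in the neoSFs and 81.6, 70.8, 47.2 and 115 in the monoiPSCs. CELF6 (gene 100017778, chromosome 1) had 1.95 and 0 in the neoSFs and 73.8, 43.9, 56.1 and 123 in the monoiPSCs. The neoSF values of CELF4 and CELF6 rest on 3 and 1 counts in total, the single count of CELF6 lying in the FD2M1 neoSFs. The fitted log2 fold change of CELF6 was 9.88 without that library and 5.29 without the LSD1 neoSFs, beside 6.34. The ratio of scaled counts was 32.2 for CELF4 (exact 95% interval 11.0 to 156, counting error only) and 92.6 for CELF6 (16.6 to 3665), with edgeR adjusted p = 0.000607 and 0.0012. CELF5 (gene 100010513, chromosome 3) was not tested, with 7.80 and 3.17 in the neoSFs and 13.5, 17.6, 10.5 and 27.3 in the monoiPSCs. CELF1 (gene 100012614, chromosome 5), the member best known from myotonic dystrophy, had 2104 and 2591 in the neoSFs and 3913, 3437, 2971 and 2983 in the monoiPSCs, and its log2 fold change of 0.60 (SE 0.18, edgeR adjusted p = 0.023) was under 2-fold.

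The NOVA proteins are neuronal splicing regulators that bind YCAY clusters. NOVA1 (gene 100015416, chromosome 1) had NRCs of 106 and 74.3 in the neoSFs and 375, 233, 238 and 289 in the monoiPSCs, a log2 fold change of 1.76 (SE 0.33, edgeR adjusted p = 0.00265). NOVA2 (gene 100618745, chromosome 4) had no count in either neoSF library and 83.5, 39.0, 46.9 and 141 in the monoiPSCs, at least 14.2-fold higher against a floor of 3 counts per library (edgeR adjusted p = 0.00223). Both genes were therefore DE, with NOVA2 undetected in neoSFs at this depth. ESRP2 (gene 100619538, chromosome 1) likewise had no count in neoSFs and 19.5, 38.9, 19.2 and 37.9 in the monoiPSCs, at least 5.29-fold higher against the same floor. It fell short of the NRC minimum in both passage 15 libraries, and without that filter its edgeR adjusted p was 0.00208. ESRP1 (gene 100029848, chromosome 3) was not tested, with 32.5 and 2.64 in the neoSFs and 5.61, 6.90, 4.21 and 6.59 in the monoiPSCs.

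Markers of other cell types also differed between the libraries. The summed NRC of 6 neuronal markers, RBFOX3 left out, was 969 and 529 in neoSFs and 6786, 3179, 4075 and 7897 in monoiPSCs. Of the 6, 5 stood above both neoSFs in every monoiPSC library and 5 were highest in LSD1 at passage 25. That was also the highest monoiPSC library for CELF3, CELF4, CELF5, CELF6, NOVA2, RBFOX1, MBNL3, HNRNPL and HNRNPUL2. Among the regulators known from neurons, NOVA1 and RBFOX3 were instead highest in FD2M1 at passage 15 and PTBP2 in LSD1 at passage 15. Of 6 skeletal muscle markers, again 5 were highest in LSD1 at passage 25 among monoiPSCs. Their summed NRC was 17649 and 21814 in neoSFs and 3902, 2055, 6522 and 17534 in monoiPSCs, and most of the neoSF sum was ACTC1. Without ACTC1, left out after the values were seen, the sum was 1305 and 346 in neoSFs and 2511, 1424, 5392 and 11116 in monoiPSCs, so the order of the groups turned. Among the 6 muscle markers, MYOG alone stood above both neoSFs in every monoiPSC library and ACTC1 alone below both. The groups overlapped for the others. Without LSD1 at passage 25 the log2 fold changes were 2.74 for CELF3, 4.69 for CELF4 and 5.96 for CELF6. These genes stayed DE, as did NOVA2, whose change cannot be sized without a neoSF count. The sizes for CELF4 and CELF6 depend on the prior count of the fit. The summed NRC of 7 epithelial markers was 3063 and 19273 in neoSFs and 6446 to 9463 in monoiPSCs, with 4 of the 7 above both neoSFs in every monoiPSC library. Without KRT18, left out after the values were seen, it was 597 and 255 in neoSFs and 5932 to 8195 in monoiPSCs. The 3 keratinocyte markers found had a summed NRC of 55.6 and 151 in neoSFs and of 0 to 6.73 in monoiPSCs. The part of these other cell types in the values of the regulators was not tested.

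The ratio of related regulators within a library does not depend on the scaling between libraries. Its change between the groups does not depend on gene length. Whether that change depends on the read length, which differed between the groups, was not tested. Of 20 pairs listed, 14 had both genes tested, and for 10 of these the monoiPSC and neoSF ratios did not overlap, 7 being higher and 3 lower in monoiPSCs. Of all single genes tested, 73.2% did not overlap between the groups. No pair could pass 0.05, since 2 libraries against 4 give a smallest two-sided p of 0.0667 in an exact permutation test, and the lowest adjusted p over the 14 pairs was 0.117. The log2 ratio of PTBP2 to PTBP1 was -5.56 and -5.41 in the neoSFs and -3.43, -3.47, -2.79 and -2.91 in the monoiPSCs, a change of 2.33 or 5.03-fold (p = 0.0667, exact permutation test). That of RBFOX1 to RBFOX2 was -6.60 and -7.53 in the neoSFs and -2.39, -2.47, -2.06 and -0.92 in the monoiPSCs, a change of 5.10 (same p). That of MBNL3 to MBNL1 was 2.38 and 2.56 in the neoSFs and -3.50, -2.09, -2.41 and -1.96 in the monoiPSCs, a change of -4.97 (same p). The sign of a ratio depends on the lengths of the 2 genes, so only its change between the groups was read. The neoSF ratios of each pair lay closer to each other than to any monoiPSC ratio.

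Within the hnRNP and SR families the changes of ratio were smaller than these 3. The log2 ratio of HNRNPLL to HNRNPL was -1.99 and -1.86 in the neoSFs and -3.45, -3.64, -2.59 and -3.89 in the monoiPSCs, a change of -1.47. That of HNRNPDL to HNRNPD was 0.99 and 0.93 in the neoSFs and -0.11, -0.07, 0.20 and -0.03 in the monoiPSCs, a change of -0.97. Both ratios were lower in every monoiPSC library than in either neoSF library (p = 0.0667 for each, exact permutation test). The ratio of SRSF5 to SRSF6 changed by 1.36 and that of SRSF7 to SRSF3 by 0.41 on the log2 scale, without overlap (p = 0.133 for each, exact permutation test). CELF2 to CELF1 changed by 1.52 (p = 0.0667, exact permutation test). The changes of CELF4 to CELF1 (3.87) and NOVA2 to NOVA1 (4.65) were computed with 0.5 added to each count and came to 2.24 and 1.49 with 5 added. The neoSF libraries held at most 3 counts of the first gene of these pairs. The ratios of PTBP3 to PTBP1, MBNL2 to MBNL1, SRSF9 to SRSF1 and SRSF12 to SRSF10 overlapped between the groups, with changes of -0.24 to 0.30.

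**Figure D5:**
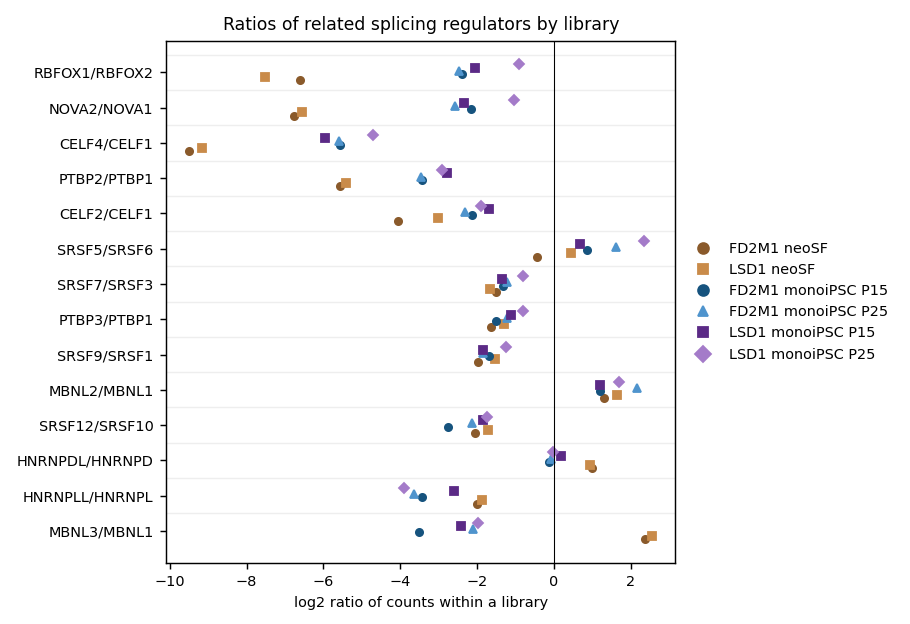
Log2 ratio of the counts of 2 related regulators within a library, on the x axis, for the 14 pairs with both genes tested, sorted by the change between the groups; 1 point per library. For MBNL3/MBNL1 the neoSFs lie at 2.38 and 2.56 and the monoiPSCs between -3.50 and -1.96, while the points of the groups intermingle for MBNL2/MBNL1 and SRSF9/SRSF1.

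The rest of the splicing machinery was examined through 3 further lists. Of 53 core spliceosome genes, 47 were found and tested, 15 (31.9%) were higher in monoiPSCs and 0 were lower by edgeR, beside 24.3% and 21.6% of all genes tested. DESeq2 called 0 lower too, and 2 genes, DHX8 and SF3B4, were lower at an unadjusted edgeR p under 0.05. Their log2 fold changes were -0.41 and -0.64. SF3B4 also passed the adjusted threshold (edgeR adjusted p = 0.0442), at under 2-fold. The 3 highest were genes of the Sm ring shared by the spliceosomal snRNPs, though not all genes of that ring changed as much. SNRPF had NRCs of 584 and 371 in the neoSFs and 2849, 2675, 1526 and 1948 in the monoiPSCs, a log2 fold change of 2.33 (SE 0.33, edgeR adjusted p = 0.000815). SNRPB had a log2 fold change of 2.20 (SE 0.19, edgeR adjusted p = 8.45e-05) and SNRPG one of 2.15 (SE 0.41, edgeR adjusted p = 0.00291). The 3 called genes with the smallest changes were SNRPD2 with 1.07, PRPF19 with 1.15 and U2AF1 with 1.18. SNRPD2 is a gene of the Sm ring too. Another, SNRPE, was not called, with a log2 fold change of 0.28 (SE 0.21, edgeR adjusted p = 0.271). The median over the 47 genes was 0.66.

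Among 6 hnRNP proteins under other symbols, 3 were higher, including RBMX with a log2 fold change of 1.13 (SE 0.33, edgeR adjusted p = 0.0193) and SYNCRIP with 1.03 (SE 0.23, edgeR adjusted p = 0.00638). Of 40 other splicing regulators tested, 19 (47.5%) were higher and RBM20 alone was lower, with a median of 0.93, beside 24.3% higher, 21.6% lower and a median of 0.080 over all genes tested. ELAVL3, a neuronal Hu protein, had no count in neoSFs and 571, 456, 360.1 and 913 in the monoiPSCs. Its relative ELAVL4 had 7.80 and 0 in the neoSFs and 958, 285, 284 and 511 in the monoiPSCs, and SRRM3, a regulator of neuronal microexons, had 0 and 1.98 in the neoSFs and 291, 116, 166 and 393 in the monoiPSCs. These were the largest changes of the list, and they rest on at most 4 counts per neoSF library. ELAVL3, ELAVL4 and SRRM3 passed the NRC filter only through the monoiPSC libraries, as did other called genes of the list. The smallest among the called genes were those of TRA2B (1.01) and EWSR1 (1.08). RBM20, a regulator of titin splicing in heart muscle, had 640.4 and 346 in the neoSFs and 119, 197, 200.0 and 184 in the monoiPSCs, a log2 fold change of -1.40 (SE 0.32, edgeR adjusted p = 0.00704). Without the FD2M1 neoSFs no gene of these lists was called lower, and without FD2M1 at passage 15 there were 2.

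Within the monoiPSCs, no regulator was DE between passage 25 and passage 15 with the strain as a covariate, and none of 12252 genes was (0.0%, edgeR). At an unadjusted p under 0.05 there were 6 of the 42 regulators (14.3%) and 9.34% of all genes. Of the 6, 4 were SR protein genes with lower values at passage 25, the others being HNRNPM with -0.46 and HNRNPL with 0.65. SRSF2 had a log2 difference of -1.01 (SE 0.19, adjusted p = 0.26, edgeR), and SRSF6, SRSF3 and SRSF7 had differences of -0.97, -0.71 and -0.39. DESeq2 called 113 genes, of which SRSF2 was the single regulator, lower at passage 25 with a DESeq2 adjusted p of 0.0015. SRSF6 passed its p threshold too (DESeq2 adjusted p = 0.0105), with a log2 difference of -0.96, under 2-fold. With 1 line per strain and 1 library per passage and line, this comparison has few degrees of freedom.

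Between the lines at matched passages, no regulator and none of the 12252 genes was DE either (0.0%, edgeR). At an unadjusted p under 0.05 there were 15 of the 42 regulators (35.7%) and 14.2% of all genes, and all 15 were lower in the LSD1 line, whereas 859 of the 1734 such genes overall were. They were 7 SRSF genes, 7 hnRNP genes and PTBP1. The lowest adjusted p was that of HNRNPAB, with a log2 difference of LSD1 over FD2M1 of -0.68 (SE 0.14, adjusted p = 0.164, edgeR). DESeq2 called 190 genes and none of the regulators, HNRNPAB and SRSF2 passing its p threshold (adjusted p = 0.0312 and 0.034) at under 2-fold. The line and the strain cannot be told apart.

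The order of the strains was also counted in neoSFs. FD2M1 stood above LSD1 for 33 of 42 regulators (78.6%) in neoSFs, for 36 (85.7%) in monoiPSCs at passage 15 and for 29 (69.0%) at passage 25, beside 51.7%, 51.7% and 49.7% of all genes tested. In all 3 pairs FD2M1 was higher for 23 of 42 (54.8%), beside 19.0% of all genes tested. These are counts over genes that share their libraries, with 1 library per strain in each pair, and carry no test. A change from neoSF to monoiPSC that differs between the strains was tested as an interaction, and 0 of the 42 regulators passed an adjusted p of 0.05 by edgeR or by DESeq2. Over all genes edgeR called 11 (0.0841%), and at an unadjusted p under 0.05 there was 1 regulator, CELF2 (edgeR adjusted p = 0.414), beside 9.08% of all genes.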

How the data were processed

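The data were RNASeq libraries of neoSFs (2) and monoiPSCs (4). The authors aligned reads to MonDom5 with StrandNGS (version 4, RefSeq annotation), kept reads with a quality of at least 20 and a mapping quality of at least 40, removed non-primary multi-mapped reads and deposited the result as counts per gene. Of the values above 0, 85.3% were not whole within 0.001, and these deposited values were handled as estimated counts, rounded before testing. The use of strand is not given for these counts. NRCs were taken as powers of 2 from a second table of the authors, the log2 of DESeq-normalized counts, a log2 value of 0 being read as 0. Genes reaching an NRC of 20 in both neoSFs or all 4 monoiPSC libraries were tested on the counts with edgeR 4.0.16 (TMM scaling, quasi-likelihood test, R 4.3.3) and Benjamini-Hochberg adjustment. DESeq2 1.42.0 and limma 3.58.1 served as alternatives. The edgeR step was also run on simulated counts, whose outcome is not given here. The simulated libraries were drawn independently, unlike passages that share a line, so that run does not cover this design. Paralog ratios used counts plus 0.5 and an exact two-sided permutation test over 15 splits.

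Intervals and floors cover counting error only. Of the 45 genes, 44 matched the gene number and symbol of the RefSeq table for the assembly mMonDom1.pri, a table that served for names alone. The members, the lists and the pairs were chosen with earlier results of these data known. Every called member was described by library, as were, per family, the members not called with the largest and smallest change, and members at 3 or fewer counts in a group. From each other list the 3 highest and 3 lowest called genes were named, except 1 gene that is not reported here. HNRNPM, HNRNPUL1, SRSF1 to SRSF4, SRSF9, SRSF10, DHX8 and SF3B4 were named to complete a count after their values were seen. SNRPE was likewise named after its values were seen. The neoSF RNA came from the passage that was reprogrammed, so each line and the neoSFs of its strain are a pair. The correlation of their deviations from the group means was 0.041 and 0.010 for FD2M1 and 0.078 and -0.016 for LSD1.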

Additional observations from a re-analysis of the deposited data

Results flagged for a closer look

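In 3 of the 45 regulators, 1 monoiPSC library lay far from the other 3, by a gap over the group's range above Dixon's 95% critical value for 4 samples. Chance flags about 1 in 20 groups. The NRC of RBFOX1 was 631 in LSD1 at passage 25 beside 237 to 283 in the other monoiPSCs, a ratio of gap to range of 0.884. The NRC of RBFOX3 was 282 in FD2M1 at passage 15 beside 159 to 176, a ratio of 0.860. The NRC of QKI was 13377 in LSD1 at passage 15 beside 11117 to 11437, a ratio of 0.859. The libraries concerned differ between the 3 genes.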

How the results depend on the processing

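The number of regulators called lower was 4 in each of the 14 alternative analyses, and that called higher ranged from 19 to 29, with 29 where no fold change minimum was set, beside 20. Leaving out 1 library at a time gave 19 to 24 higher and 4 lower. Where 1 neoSF library remained, its spread was assumed to be that of the monoiPSCs. Of the 24 DE regulators, 22 were called in all 13 alternatives that keep the thresholds, the exceptions being SRSF5 and HNRNPAB. With the strain as replicate block, 21 regulators were higher and 4 lower, SRSF7 being added, and no other call of a regulator changed. With no fold change minimum, 27 core spliceosome genes were higher and 1 was lower, and 2 other splicing regulators were lower. The share of all genes passing without that minimum is not given, so these counts and the 29 regulators have no background beside them. With the 2-fold minimum, 3171 of all 13072 genes tested were higher. That number was 2969 with the passages of a line summed and 3474 with upper-quartile scaling. Other splicing regulators and hnRNP proteins under other symbols, counted together, had 22 genes called higher. That count was 19 to 24 in the alternatives that keep the thresholds and both neoSFs. It was lower still without the LSD1 neoSFs, in a fit with 1 neoSF library. With 1 library left out, the other splicing regulators called lower ranged from 0 to 2. Between passages DESeq2 called 1 regulator, and an unadjusted p under 0.05 gave 6 between passages and 15 between lines. The median log2 fold change of all genes tested was 0.080 with TMM, 0.030 with RLE and 0.189 with upper-quartile scaling, and no regulator's log2 fold change turned sign between these. Leaving out a library was not run within the monoiPSCs, where no residual degrees of freedom would remain. The smaller totals of the 2 neoSF libraries set the limit for genes near 3 counts.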
